A study of Mus musculus with 4 samples.

Results

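The collagen chain genes were taken from bulk RNA-seq of granulosa cells (GCs) of the mouse ovary, which enclose and nourish the oocyte. Members were all genes of the count table whose symbol consists of Col, a number, the letter a and a number, which gave 44 of 55385 genes. By the class of the chain they were divided into 11 fibrillar genes, 6 genes of type IV collagen (Col4) and 27 genes of other types. Both groups came from preantral follicles of Kunming mice, dissected from females of 12 to 14 days of age and cultured for 6 days in medium with FSH. The follicles of the NT4 group (2 libraries) were grown with neurotrophin-4 (NT-4), and those of the Control group (2 libraries) without it. GCs were those left after the oocytes had been removed, so each library is a mixture of cells. By the study's account the 2 samples of a group were from separate experiments, with groups cultured side by side. NT-4 was used at the dose the study had chosen from its culture tests, which the labels leave out, as they do whether a library number marks 1 experiment.

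Collagens are proteins of the extracellular matrix in which 3 chains wind into a triple helix, and the helix requires a glycine in every step of the repeat along each chain. Fibrillar chains form long, straight helices that pack into the fibrils of connective tissue. Type IV chains carry a helix with many interruptions and assemble into the flexible network of basement membranes, which in the ovary encloses the follicle outside the granulosa layer. The other types coat fibrils, form beaded filaments or short-chain networks, anchor basement membranes or span the plasma membrane.

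The division into classes was visible in the coding sequences. In the longest coding sequence of each gene, a repeat was read as a GGN codon (glycine) followed by 2 other codons, and a run as 3 or more repeats in a row. Short stretches of 4 genes are shown first because they carry the unbroken repeat, written 5′ to 3′ with the glycine codon of each repeat in capitals. They are codons 675 to 689 of Col1a1, 680 to 694 of Col3a1, 1034 to 1048 of Col11a1 and 348 to 362 of Col9a2, counted from the start codon in the GENCODE M21 transcripts.
Col1a1: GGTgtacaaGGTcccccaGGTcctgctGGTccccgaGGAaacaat
Col3a1: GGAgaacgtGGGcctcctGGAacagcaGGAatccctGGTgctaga
Col11a1: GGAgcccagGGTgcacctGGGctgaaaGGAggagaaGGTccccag
Col9a2: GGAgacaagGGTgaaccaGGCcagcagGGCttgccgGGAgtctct

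For 3 chains of type IV the stretch around an early short break is shown, because type IV chains had the most such breaks, 22 to 26 per gene. They are codons 154 to 181 of Col4a1, 163 to 192 of Col4a2 and 153 to 176 of Col4a5. The repeat stops after the third capital codon and starts again at the fourth, and the lower-case codons between hold the break.
Col4a1: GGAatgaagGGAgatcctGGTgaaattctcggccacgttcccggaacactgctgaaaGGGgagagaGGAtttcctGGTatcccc
Col4a2: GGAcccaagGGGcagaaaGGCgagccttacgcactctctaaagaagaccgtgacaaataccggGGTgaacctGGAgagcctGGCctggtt
Col4a5: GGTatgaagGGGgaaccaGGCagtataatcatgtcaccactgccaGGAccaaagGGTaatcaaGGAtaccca

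The longest run held 216 to 344 repeats in the fibrillar genes (median 338). Only Col24a1 (216) and Col27a1 (217) lay under 337 within that class. In the type IV genes the longest run held 39 to 66 repeats (median 43.5), although 74.9% to 78.9% of their codons lay in repeats. The number of runs was 2 to 5 in fibrillar genes and 23 to 27 in type IV genes. Breaks of 20 codons or fewer between runs numbered 22 in Col4a1 against 1 in Col1a1 and 0 in Col3a1. Some of the other types were broken in a like way, with 18 such breaks each in Col7a1 and Col16a1 and 16 in Col28a1, and 2 to 23 runs over the whole class. Their longest runs held 23 to 113 repeats, from fewer than in any type IV gene to more than in any, and the repeat took from 8.1% of the codons in Col12a1 to 85.6% in Col9a3. Coding exons of the fibrillar and type IV genes followed the same division. Exons of exactly 54 bases, a length of 6 repeats, numbered 21 to 33 per fibrillar gene and 1 to 3 per type IV gene. The other types had 0 to 28 such exons, with 28 in Col22a1, and so overlapped both ranges. The classes were assigned from textbook knowledge of the chains, so this is a description of them and was not tested.

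**Figure D1:**
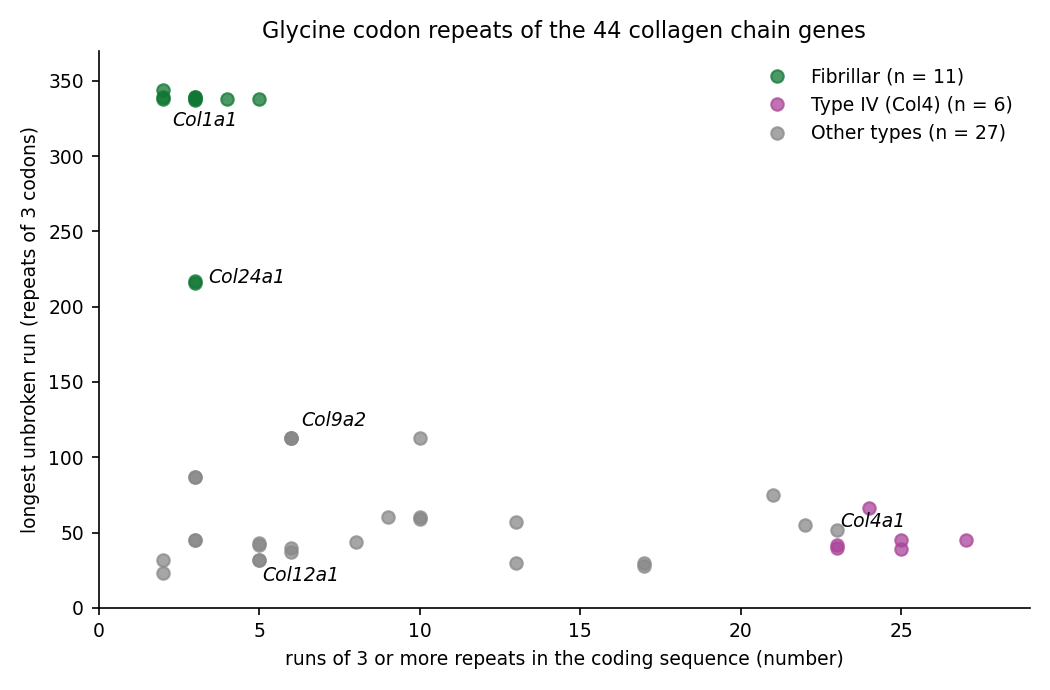
Number of runs of 3 or more glycine codon repeats in the coding sequence (horizontal axis) and repeats in the longest unbroken run (vertical axis) of each of the 44 collagen chain genes, by class. The fibrillar genes sit at 2 to 5 runs and 216 to 344 repeats, and the type IV genes at 23 to 27 runs and 39 to 66 repeats.

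The type IV genes lie in the genome as pairs that start next to each other on opposite strands (GRCm38). Col4a1 (chr8:11198423-11312826, minus strand) and Col4a2 (chr8:11312805-11449287, plus strand) share 22 bases of their annotated first exons. Col4a4 and Col4a3 start 71 bases apart on chromosome 1. Col4a6 (chrX:141165403-141474076, minus strand) and Col4a5 (chrX:141475385-141689234, plus strand) start 1308 bases apart. The shared 22 bases (chr8:11312805-11312826), the 71 bases between Col4a4 and Col4a3 (chr1:82586850-82586920) and the 250 bases before the start of Col4a6 (chrX:141474077-141474326) are shown because the chains of these pairs are compared below. The first 2 are on the plus strand and the last is on the minus strand. Sequences are from RefSeq (GRCm38.p6), with matches to GGGCGG on either strand in capitals.
Col4a1 and Col4a2, shared bases: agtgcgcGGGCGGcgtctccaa
Col4a4 to Col4a3, between the starts: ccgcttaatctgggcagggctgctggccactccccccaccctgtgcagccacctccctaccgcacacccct
Col4a6, before the start: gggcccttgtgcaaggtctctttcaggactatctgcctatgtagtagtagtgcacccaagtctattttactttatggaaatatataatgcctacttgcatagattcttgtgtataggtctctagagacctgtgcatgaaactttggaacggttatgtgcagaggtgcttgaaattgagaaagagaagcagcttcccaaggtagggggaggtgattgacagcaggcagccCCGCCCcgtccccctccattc

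Promoter windows of 250 bases before to 50 after the start were given for 35 of the 44 genes, in 38 windows. The letters GGGCGG, searched on both strands, were in 23 of the 38 windows (60.5%) and in 35.7% of all 32851 windows of the same length. By class they were in 6 of 8 fibrillar, 4 of 5 type IV and 13 of 25 other windows. The windows of Col4a1 and Col4a2 overlap and both hold the match shown above, which thus enters more than once. Those of Col6a2 overlap as well. CCAAT was in 13 of the 38 windows (34.2%, against 37.4% of all windows) and TATAAA in 5 (13.2%, against 13.6%), also on both strands. These matches describe the letters only.

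The libraries held 49520092 to 78704020 counts, and about 4 counts stood for 1 read pair. A count of 0 allows at most 3 read pairs. In CPM (a count scaled to the library total) this floor was at 0.152 to 0.242, depending on the library, and it covers counting error only. Over all genes with a mean of at least 1 CPM, NT4 1 was the highest of the 4 libraries in 26.5%. Of 12 granulosa markers, 12 were detected at a mean of at least 1 CPM, with a summed level of 11893 to 18346 CPM. Markers of theca and stroma (13 genes) were detected as well, and their values stand beside the collagen results they accompany.

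Most collagen chains were detected in these GCs. Counts were present in all 4 libraries for 40 of the 44 genes, and 33 reached a mean of 1 CPM, namely 8 of 11 fibrillar, 6 of 6 type IV and 19 of 27 other genes. The 11 genes below that mean had means of at most 0.741 CPM. Among them Col9a1 had no count in any library, Col2a1, the chain of cartilage fibrils, had 12 counts in NT4 1 only, and Col19a1 had 8 counts in Control 2 and 4 in NT4 2. Type II collagen was thus at or below the floor, although chains that accompany it in cartilage, Col11a1 and Col9a2, were among the most abundant.

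Levels between genes were compared in RPKM, CPM per kilobase of the longest protein-coding transcript. Col4a1 (ENSMUSG00000031502), a chain of the common basement membrane network, was the most abundant at 91.5 ± 17.0 RPKM (SD over the 4 libraries of both groups). Col3a1 (ENSMUSG00000026043, chr1:45311538-45349706), the chain of type III fibrils, followed at 78.4 ± 13.2 RPKM and was below Col4a1 in 4 of 4 libraries. Col1a2 (chr6:4504814-4541544), a chain of type I fibrils, had 74.2 ± 16.7 RPKM and was below Col3a1 in only 2 of 4 libraries.

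After these came Col4a2, the partner of Col4a1, with 60.4 ± 12.9 RPKM, and Col11a1, a chain that sits inside fibrils, with a mean of 51.55 RPKM. Col6a1 (38.4 ± 5.28 RPKM), which forms beaded filaments, Col9a2, which lies on fibril surfaces, and Col1a1 (30.9 ± 8.43 RPKM), the other chain of type I, followed. Among the 14 most abundant chains, Col1a1 above Col6a2 (17.7 ± 3.97 RPKM) was the one pair of neighbours in the order whose ranges over the 4 libraries did not overlap. All other neighbours in this order overlapped in range.

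Fibrillar chains took 45.8% to 47.5% of the summed collagen RPKM of a library. Type IV chains took 30.0% to 34.1%, and the other types 20.2% to 23.8%. The share of type IV was 31.4 ± 1.86% (SD, n = 4 libraries). Which of the first 2 classes was larger depends on the gene length used. With the longest transcript fibrillar chains were above type IV in 4 of 4 libraries, but with merged exon length, a choice added after seeing the data, type IV was the larger in 3 of 4, at 36.7% to 41.4% against 36.25% to 38.1% for fibrillar chains. In Control 2 the shares were nearly equal, at 38.07% and 38.06%.

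**Figure D2:**
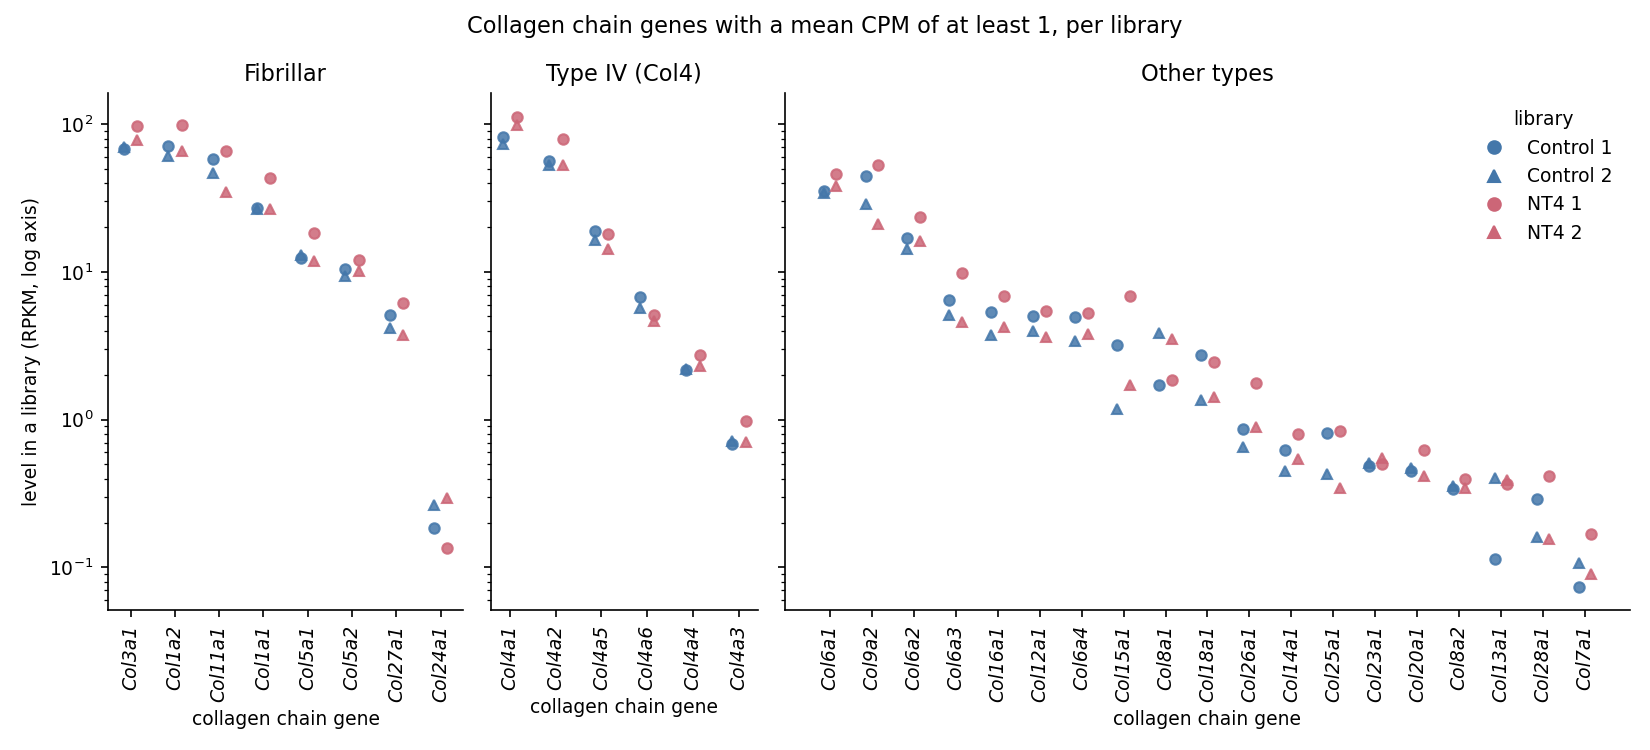
Level of each collagen chain gene with a mean of at least 1 CPM in each of the 4 libraries (RPKM, log axis), by class, with circles for libraries numbered 1, triangles for those numbered 2, blue for Control and red for NT4. Col4a1 and Col3a1 are at the top of their classes, and NT4 1 is the highest library for 26 of the 33 genes.

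Chains that form 1 protein together were not at equal levels. The type I protein holds more alpha 1 than alpha 2 chains, yet the RPKM of Col1a2 was 2.65 and 2.29 times that of Col1a1 in Control 1 and 2, and 2.26 and 2.49 times in NT4 1 and 2. The size of this ratio depends on the gene length used and would be smaller with merged exon length. Col1a2 has 5348 bases in its longest transcript and 12426 in merged exons, against 5930 and 6563 for Col1a1. The ratio of Col4a1 to Col4a2 was 1.465 and 1.39 in Control 1 and 2, and 1.41 and 1.86 in NT4 1 and 2. The pair Col4a4 and Col4a3, chains of a network best known from the kidney filter, had a ratio of 2.78 to 3.27 over the 4 libraries, at 2.35 and 0.774 RPKM. Such ratios compare coverage of different transcripts per length and are not protein ratios.

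The comparison of the NT4 group with the Control group asks how GCs differ when follicles grow with NT-4. No collagen chain gene passed an adjusted p of 0.05 by edgeR's quasi-likelihood test (0 of 41 tested), and neither did any gene of the whole table (0%). At an unadjusted p under 0.05 there were 2 members, Col4a1 and Col3a1, against 1.99% of all genes. None met the criterion of the study's methods, more than 2-fold higher or below 0.5 of the Control level at an unadjusted p below 0.05, which 1.08% of all genes met. At an adjusted p of 0.05 the DESeq2 Wald test gave 0 members and 63 of the 20269 genes it gave an adjusted p (0.311%), edgeR's exact test 0 members and 59 of all 19259 genes (0.306%), and limma voom 0 members and 0 genes (0%). With 2 libraries against 2 a two-sided exact permutation test cannot go below p = 0.333, and the p-values given here depend on the variance that edgeR estimates jointly over genes.

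In direction, the collagen genes leaned to NT4. Of the 33 genes with a mean of at least 1 CPM, 26 had a log2 fold change above 0 and 7 below, against 52% above 0 over all 14332 genes at that mean. Their median log2 fold change was 0.26, against 0.0075 for all genes. The 3 classes had like medians, 0.22 for fibrillar (n = 8), 0.26 for type IV (n = 6) and 0.29 for other types (n = 19). This lean rested on 1 library. With NT4 1 left out, 17 of the 33 were above 0 (51% of all genes), and the medians were 0.035, 0.015 and −0.080 for fibrillar, type IV and other types. NT4 1 was the highest library for 26 of the 33 genes.

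Groups that did not overlap were few. Both NT4 libraries were above both Control libraries for 5 of the 33 genes, Col4a1, Col3a1, Col6a1, Col4a4 and Col26a1 (15.2%), against 11% of all genes. For Col4a6 alone both NT4 libraries were below both Control libraries (3.03%), against 13.6% of all genes. With CPM scaled by TMM factors the first count was 8, adding Col1a1, Col5a2 and Col4a3 (24.2%), against 12.7% of all genes, and Col4a6 remained the 1 gene in the opposite direction, against 11.3%.

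**Figure D3:**
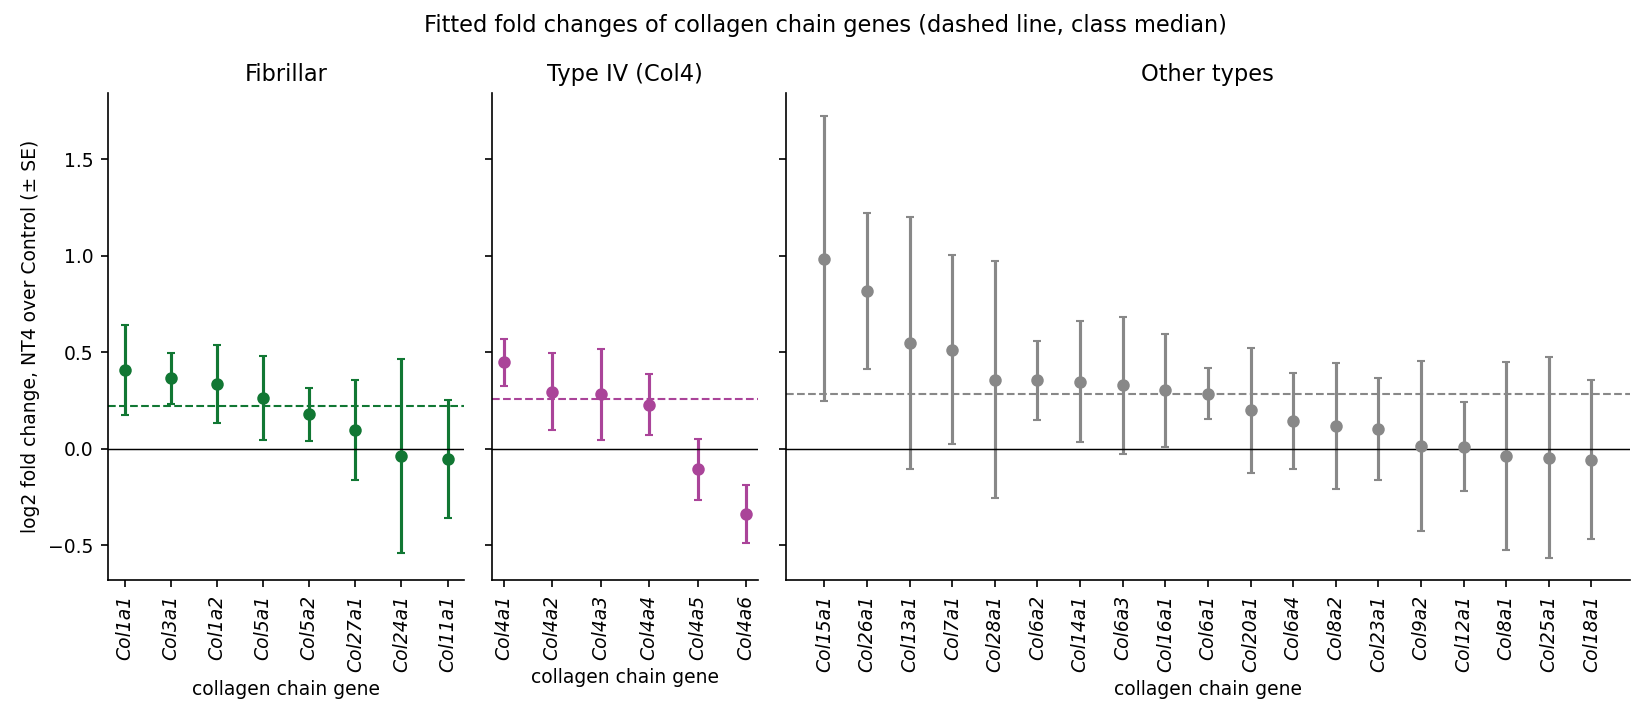
Fitted log2 fold change of NT4 over Control (vertical axis) with its standard error for the 33 collagen chain genes with a mean of at least 1 CPM, by class, with a dashed line at the class median. The medians lie at 0.22, 0.26 and 0.29, and Col4a5 and Col4a6 lie below 0 while the other 4 type IV genes lie above it.

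The summed level of all collagen genes was 552 and 486 RPKM in Control 1 and 2, and 727 and 507 RPKM in NT4 1 and 2. Thus NT4 1 stood above the rest and NT4 2 lay between the Control libraries. Fibrillar genes summed to 242 ± 15.8 RPKM in Control and 287 ± 77.6 in NT4 (SD, n = 2), type IV genes to 159 ± 11.2 and 196 ± 32.2, and other types to 118 ± 19.7 and 135 ± 45.7. For type IV the sum of NT4 2 alone (173 RPKM) was above both Control libraries (167 and 151). Within that sum Col4a1 had 98.1 RPKM in NT4 2 against 82.4 and 73.6 in Control, and Col4a4 had 2.31 against 2.17 and 2.195. Col4a2 (52.9 against 56.2 and 52.9), Col4a3, Col4a5 and Col4a6 were not above both Control libraries in NT4 2. For fibrillar genes NT4 2 (232) was between them (253 and 231), and for other types it was below both (102 against 132 and 104).

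Theca and stroma markers leaned to NT4 as well, but 0 of the 13 genes of that list passed an adjusted p of 0.05 by edgeR. At an unadjusted p under 0.05 by edgeR there were 4 of the 13, against 1.99% of all genes. Of the 12 with a mean of at least 1 CPM, 12 had a log2 fold change above 0 (median 0.39), against 52% of all genes. Des, the marker below that mean (0.952 CPM), went the other way, with a log2 fold change of −0.44 (SE 1.09). For 6 of the 12 both NT4 libraries were above both Control libraries, against 11% of all genes, and for the other 6 the groups overlapped. Their summed level was 650 and 643.5 CPM in Control and 882 and 790 CPM in NT4, and none of them was at 0. Mesenchymal cells of the theca are known to make fibrillar collagen. The part of such cells in the collagen values was not tested, and in bulk samples more cells of a type and more RNA per cell cannot be told apart. The granulosa list had a median log2 fold change of 0.028.

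Among type IV chains, Col4a1 had the smallest p of all members. Its level was 545 and 487 CPM in Control 1 and 2, and 740 and 649 CPM in NT4 1 and 2. Both NT4 libraries were thus above both Control libraries. The log2 fold change was 0.45 (SE 0.12, edgeR unadjusted p = 0.0121, adjusted p = 0.9999), and it was 0.36 to 0.52 with each library left out in turn. Col4a2, which is transcribed from the same promoter region in the opposite direction, had 362.5 and 341 CPM in Control and 513 and 341 CPM in NT4. Only NT4 1 was high, and the log2 fold change of 0.30 (SE 0.20) went to −0.012 without that library.

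Col4a5 and Col4a6, whose chains occur together, did not follow Col4a1. Col4a6 had 44.9 and 38 CPM in Control and 34.0 and 30.7 CPM in NT4. Its groups did not overlap, in the opposite direction from Col4a1, with a log2 fold change of −0.34 (SE 0.15, edgeR unadjusted p = 0.0735, adjusted p = 0.9999). It kept that sign with each library left out, from −0.44 to −0.23. Col4a5 had 124 and 107 CPM in Control and 119 and 93.2 CPM in NT4, which overlapped (log2 fold change −0.11, SE 0.16). The RPKM ratio of Col4a1 to Col4a6 was 12.2 and 12.9 in Control and 21.9 and 21.2 in NT4. That of Col4a1 to Col4a5 was 4.33 and 4.51 in Control and 6.16 and 6.88 in NT4. Both ratios were chosen after the values of the chains had been seen, so they are given without a test.

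Col4a3 and Col4a4 were the least abundant type IV chains. Col4a4 had 21.9 and 22.2 CPM in Control and 27.7 and 23.4 CPM in NT4 (log2 fold change 0.23, SE 0.16), without overlap. Col4a3 had 5.90 and 6.13 CPM in Control and 8.42 and 6.05 CPM in NT4 (0.28, SE 0.24), with NT4 2 inside the Control range. Without NT4 1 the log2 fold changes were 0.12 for Col4a4 and 0.041 for Col4a3. Exons of Col4a3 overlap an antisense gene, C430014B12Rik, over 5.65% of their length, and counting by strand is not stated.

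**Figure D4:**
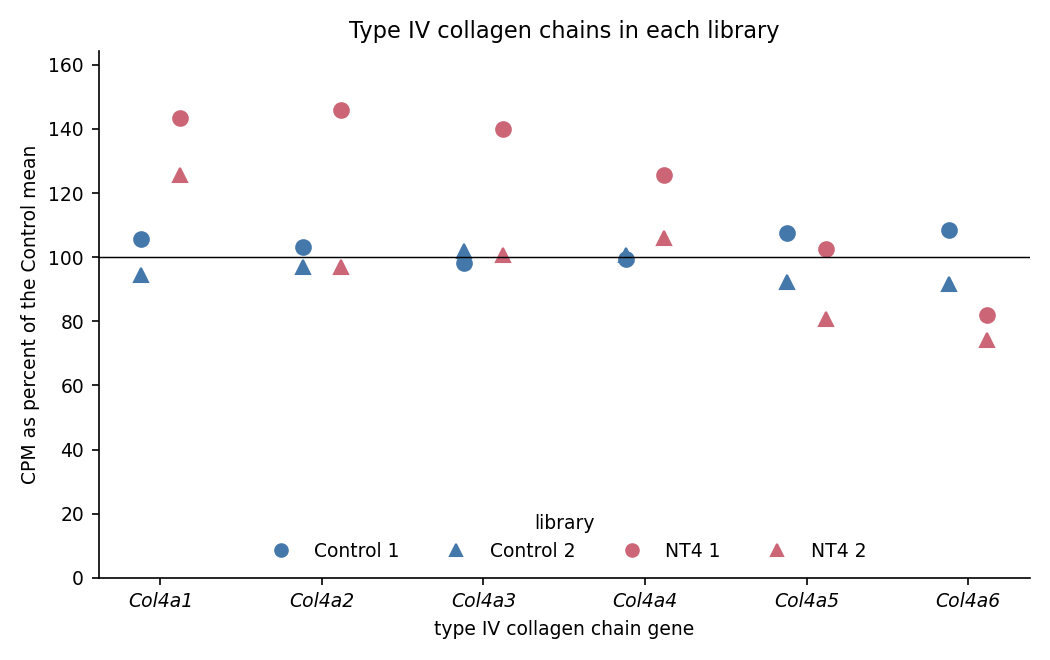
CPM of each type IV collagen gene in each library as percent of its Control mean (vertical axis from 0), with circles for libraries numbered 1 and triangles for those numbered 2. Both NT4 libraries lie above both Control libraries for Col4a1 and Col4a4 and below them for Col4a6, and for Col4a2 and Col4a3 only NT4 1 stands apart.

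Among fibrillar chains, Col3a1 had 380 and 388 CPM in Control and 539.8 and 437 CPM in NT4. Both NT4 libraries were higher, with a log2 fold change of 0.37 (SE 0.13, edgeR unadjusted p = 0.0384, adjusted p = 0.9999) that was 0.22 without NT4 1. Of its exon bases, 1.44% are shared on the same strand with the miRNA gene Gm47302.

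The type I chains were higher in NT4 1 only. Col1a1 (chr11:94936224-94953042) had 160.0 and 157 CPM in Control and 258 and 158 CPM in NT4 (log2 fold change 0.41, SE 0.23). Col1a2 had 382 and 324 CPM in Control and 526 and 355 CPM in NT4 (0.34, SE 0.20). Without NT4 1 these log2 fold changes were 0.03 and 0.04.

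The type V chains join type I fibrils and limit their width. Col5a1 had 104 and 109.6 CPM in Control and 155 and 98.9 CPM in NT4 (log2 fold change 0.26, SE 0.22). Col5a2 had 69.0 and 61.9 CPM in Control and 79.3 and 66.8 CPM in NT4 (0.18, SE 0.14). Without NT4 1 the log2 fold change of Col5a2 was 0.064. In both genes NT4 1 was the highest library and the groups overlapped. The remaining chain, Col5a3, had 0.0808 to 0.457 CPM, and its values in Control 1, Control 2 and NT4 1 were under the floor.

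Col11a1 (chr3:114030540-114220718), a chain related in sequence and role to those of type V, went with the library number instead of the group. It had 448 and 361 CPM in Control 1 and 2, and 507 and 265 CPM in NT4 1 and 2. The lowest and the highest value were both in NT4, and the log2 fold change was −0.05 (SE 0.30). It moved from −0.57 without NT4 1 to 0.33 without NT4 2.

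Col27a1 and Col24a1, the fibrillar chains with the shorter run of repeats, were at 4.8 and 0.22 RPKM. Col27a1 had 39.1 and 32.0 CPM in Control and 46.8 and 28.3 CPM in NT4 (log2 fold change 0.10, SE 0.26). Col24a1 had 1.31 and 1.898 CPM in Control and 0.968 and 2.11 CPM in NT4 (−0.04, SE 0.50). The Control values of both genes lay within the NT4 range. Col11a2, below a mean of 1 CPM, had 0.666 and 0.542 CPM in Control and 0.952 and 0.140 CPM in NT4, the last of which is under the floor.

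Among the other types, the beaded filament chains of type VI summed to 64.1 and 57.0 RPKM in Control and 84.5 and 62.5 RPKM in NT4. These filaments link cells and basement membranes to fibrils. Of the 6 genes, 4 had a mean of at least 1 CPM and all 4 of those had a log2 fold change above 0. Col6a1 (chr10:76708792-76726168) had 145 and 140.3 CPM in Control and 188 and 155 CPM in NT4. Of these 4 genes it was the one whose groups did not overlap, with a log2 fold change of 0.29 (SE 0.13, edgeR unadjusted p = 0.0798) that stayed between 0.15 and 0.40 with each library left out.

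Col6a2 had 79.4 and 66.1 CPM in Control and 109 and 74.9 CPM in NT4 (log2 fold change 0.35, SE 0.20). Without NT4 1 that log2 fold change was 0.077. Col6a3 had 65.7 and 51.8 CPM in Control and 99.5 and 46.6 CPM in NT4 (0.33, SE 0.35). Col6a4 had 36.4 and 24.95 CPM in Control and 38.9 and 28.0 CPM in NT4 (0.14, SE 0.25). For these 3 genes NT4 1 was the highest library and the groups overlapped. Col6a6, below a mean of 1 CPM, had 0.969 and 0.692 CPM in Control and 0.629 and 0.673 CPM in NT4 (−0.32, SE 0.47), with both NT4 libraries lower. Its log2 fold change was −0.079 without Control 1.

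FACIT chains, which attach to the surface of fibrils, summed to 56.6 and 37.5 RPKM in Control and 66.4 and 30.1 RPKM in NT4. Col9a2 (chr4:121039385-121055322) made up most of this sum. It had 131 and 84.1 CPM in Control 1 and 2, and 154 and 61.8 CPM in NT4 1 and 2, so that the NT4 libraries held both the highest and the lowest value. The log2 fold change was 0.01 (SE 0.44) and went from −0.77 without NT4 1 to 0.52 without NT4 2. The partner chains were far lower, with no count of Col9a1 and at most 0.242 CPM of Col9a3.

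Col12a1, a long FACIT chain of tissues under tension, had 58.3 and 46.0 CPM in Control and 62.3 and 41.5 CPM in NT4 (log2 fold change 0.01, SE 0.23). Col16a1 had 28.1 and 19.5 CPM in Control and 36.0 and 21.97 CPM in NT4 (0.30, SE 0.29). Col14a1, which binds fibrils, had 4.04 and 2.90 CPM in Control and 5.20 and 3.52 CPM in NT4 (0.35, SE 0.31). Without NT4 1 the log2 fold change of Col14a1 was 0.057. In all 3 genes the first library of each group was the higher one. Col20a1 had 2.07 to 3.15 CPM (0.20, SE 0.32), but its exons share 79 bases on the same strand with BX649560.1, which had more counts than Col20a1 itself, so its value is uncertain.

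The multiplexins are collagens of basement membrane zones. Col15a1 (chr4:47208161-47313167) had 16.5 and 6.10 CPM in Control and 35.4 and 8.87 CPM in NT4. Its log2 fold change of 0.99 was the highest of the 33 genes and had a standard error of 0.74, the largest of those genes, with values from −0.31 without NT4 1 to 1.85 without Control 1. Col18a1, the source of the fragment endostatin, had 15.2 and 7.59 CPM in Control and 13.8 and 7.92 CPM in NT4 (−0.06, SE 0.41). In both genes the first library of each group was the higher one and the groups overlapped.

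Col8a1, a short-chain network collagen of vessels and matrix, showed the opposite order of libraries. It had 8.74 and 19.8 CPM in Control 1 and 2, and 9.55 and 17.9 CPM in NT4 1 and 2 (log2 fold change −0.04, SE 0.49). Col8a2, its partner, had 1.499 to 1.73 CPM in NT4 and 1.47 to 1.53 CPM in Control (0.12, SE 0.33). The log2 fold change of Col8a2 was 0.028 without NT4 1. Neither gene separated the groups.

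The remaining genes were low. Among transmembrane chains, Col25a1 had 5.43 and 2.86 CPM in Control and 5.65 and 2.3 CPM in NT4 (log2 fold change −0.04, SE 0.52). Col23a1 had 2.77 to 2.88 CPM in Control and 2.84 to 3.14 CPM in NT4. Col13a1 had 0.363 and 1.27 CPM in Control and 1.16 and 1.23 CPM in NT4 (0.55, SE 0.65). The groups overlapped in all 3 genes.

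Col26a1, which was first found in ovary and testis, had 2.40 and 1.83 CPM in Control and 4.91 and 2.48 CPM in NT4. Both NT4 libraries were higher, NT4 2 by little, and the log2 fold change was 0.82 (SE 0.41, edgeR unadjusted p = 0.0965) and 0.26 without NT4 1. Col28a1 had 1.23 and 0.678 CPM in Control and 1.76 and 0.661 CPM in NT4 (0.36, SE 0.61). Col7a1, the chain of anchoring fibrils under epithelia, had 0.687 and 0.990 CPM in Control and 1.55 and 0.839 CPM in NT4 (0.51, SE 0.49). The log2 fold change of Col7a1 was 0.027 without NT4 1. The groups of these last 2 genes overlapped.

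**Figure D5:**
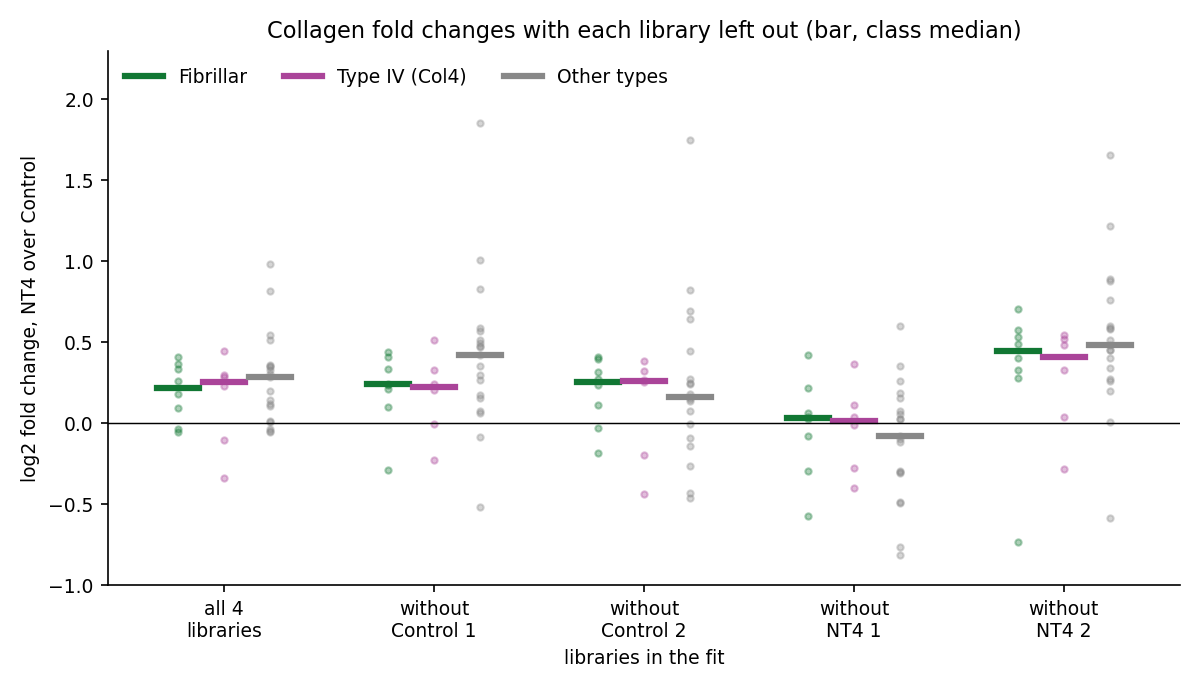
Log2 fold change of NT4 over Control (vertical axis) for collagen chain genes with a mean of at least 1 CPM, with all libraries and with each library left out in turn (horizontal axis), by class, with a bar at each class median. Without NT4 1 the medians are 0.035, 0.015 and −0.080, and without NT4 2 they are 0.45, 0.41 and 0.48 (fibrillar, type IV and other types).

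The genes that modify, fold, trim, cross-link or bind collagen had a median fold change near 0. Of 43 such genes 40 were tested, and 0 passed an adjusted p of 0.05 by edgeR, with 2 (5%) at an unadjusted p under 0.05, against 1.99% of all genes. Of the 36 with a mean of at least 1 CPM, 25 (69.4%) had a log2 fold change above 0, against 52% of all genes, with a median of 0.022. Their log2 fold changes ran from −0.56 to 0.65 around that median. P4hb was the most abundant of the prolyl 4-hydroxylase subunit genes, and the action of that enzyme stabilises the helix. P4hb had 1503 and 1540.3 CPM in Control and 1450.2 and 1467 CPM in NT4 (log2 fold change −0.04). Serpinh1, the collagen chaperone of the endoplasmic reticulum, had 896 and 774 CPM in Control and 737 and 802 CPM in NT4 (−0.10). Plod2, a lysyl hydroxylase, had 487 to 508 CPM in the 4 libraries (0.04), and the 5 genes of lysyl hydroxylation and glycosylation lay between 0.016 and 0.040. For comparison, the summed CPM of the collagen chain genes was 3297 and 2923 in Control and 4332 and 3040.2 in NT4.

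P3h1, a prolyl 3-hydroxylase, had 182 and 186 CPM in Control and 157 and 220.5 CPM in NT4 (log2 fold change 0.06). Adamts2, which removes the propeptide of fibrillar chains, had 559.6 and 549 CPM in Control and 619.6 and 485 CPM in NT4 (0.01). Pxdn, which forms the sulfilimine cross-link of type IV collagen, had 169.6 and 263 CPM in Control and 176 and 186 CPM in NT4 (−0.24). Itgb1, the beta chain of collagen-binding integrins, had 492 and 441 CPM in Control and 556 and 416 CPM in NT4 (0.08). Of the 7 genes most abundant in their roles, only P4hb had groups that did not overlap, with both NT4 libraries lower. Among the 36 machinery genes with a mean of at least 1 CPM, both NT4 libraries were higher for 1 (2.78%), against 11% of all genes. They were lower for 2 of the 36, against 13.6% of all genes.

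Of the 40 machinery genes tested, Adamts3, another propeptide protease, was the 1 that met the study's criterion, which 1.08% of all genes met. It had 22 and 30 counts in Control and 0 and 4 counts in NT4, which are at or under the floor of 12 counts in NT4, so no fold is given. P3h3, a prolyl 3-hydroxylase named after its values had been seen, had 18.9 and 22.4 CPM in Control and 31.2 and 32.8 CPM in NT4 (log2 fold change 0.65, SE 0.17, edgeR unadjusted p = 0.00969, adjusted p = 0.9999).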

How the data were processed

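Per the study's methods, the authors trimmed reads with Cutadapt 1.9, aligned them to Ensembl release 99 (mouse, GRCm38) with HISAT2, and used StringTie and ballgown for expression. The authors deposited expected counts, which are estimated whole numbers per gene with no normalization. How they were derived from the StringTie output, and whether strand was used, is not given in the sources used here. Between 45.4% and 46.2% of counts from 1 to 12 sat at 4, 8 or 12.

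The counts were compared between groups in R 4.3.3 with edgeR 4.0.16 (quasi-likelihood test, TMM, filterByExpr, group only, two-sided, Benjamini-Hochberg over 19259 genes), which was first tested on simulated data. Other fits used DESeq2 1.42.0, limma 3.58.1, other scalings and filters, a replicate block, and each library left out. CPM used library totals. RPKM used the longest protein-coding transcript of GENCODE M21, which was also the source of coordinates (GRCm38) and coding sequences. Symbols matched 55144 of 55385 identifiers. The collagen members, classes and gene lists were chosen with earlier results of these data known. Values are given for members with a mean of at least 1 CPM and the 2 members nearest below it, and for the most abundant machinery gene of each role and any that met the study's criterion. The other members are given by counts and ranges. The markers of endothelium, surface epithelium, macrophages and oocytes summed to 19.3 to 28.5, 37.2 to 45.8, 1.58 to 2.78 and 61.9 to 89.6 CPM per library.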

Additional observations from a re-analysis of the deposited data

How the results depend on the processing

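Under the scalings, filters, tests and left-out libraries that were run, 0 collagen genes passed an adjusted p of 0.05, and their lowest adjusted p in any of these fits was 0.761. For the named machinery genes it was 0.264, and for P3h3 among them it was 0.335. Of 640 fold changes recomputed for 43 genes, which leave out P3h3, 598 kept their sign and 42 reversed, 33 of them with a library left out. A group reduced to 1 library was assumed to vary like the other. With each library left out in turn, 0 to 2 collagen genes met the study's criterion (Col15a1 without Control 1, Col13a1 without Control 2, Col26a1 and Col15a1 without NT4 2), and the class medians ranged from 0.035 to 0.45 for fibrillar, from 0.015 to 0.41 for type IV and from −0.080 to 0.48 for other types. The lowest medians were those without NT4 1. The share of type IV (31.4% of the summed RPKM) was 34.7% in CPM, 46.4% without Col1a1, Col1a2 and Col3a1, 38.3% with merged exon length and 30.6% with coding length from the annotation, both added after seeing the data. These differences follow from the lengths and genes that enter the share. Coding length from a protein table was not run.

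Fold changes that reversed with all libraries were near 0. With library totals, Col9a2 was at −0.00024, Col12a1 at −0.0069 and Adamts2 at −0.0046 on the log2 scale. With limma voom, Col9a2 was at −0.089, Col12a1 at −0.0042 and Col18a1 at 0.0079. With the replicate number as a block, Col9a2 was at −0.088, Col12a1 at −0.0060 and Col8a1 at 0.0082. The groups were cultured in parallel in separate experiments, but the sources do not say that a number marks 1 experiment. Deviations of same-numbered libraries correlated at Pearson's r = 0.14 and Spearman's rho = 0.26 across genes, which are not independent replicates. The block gave 0 collagen genes at an adjusted p of 0.05, a collagen median of 0.23, and 580 genes at an unadjusted p under 0.05 in place of 383.

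Genes whose sign reversed when a library was left out had these ranges of the log2 fold change. Type IV and fibrillar genes were Col4a2 (−0.012 to 0.55), Col4a5 (−0.28 to 0.040), Col11a1 (−0.57 to 0.33), Col5a1 (−0.079 to 0.53), Col27a1 (−0.29 to 0.40), Col24a1 (−0.73 to 0.42) and Col11a2 (−2.06 to 0.66). Other types were Col9a2 (−0.77 to 0.52), Col6a3 (−0.30 to 0.76), Col16a1 (−0.080 to 0.60), Col12a1 (−0.30 to 0.26), Col6a4 (−0.098 to 0.42), Col15a1 (−0.31 to 1.85), Col8a1 (−0.59 to 0.69), Col18a1 (−0.49 to 0.51), Col25a1 (−0.81 to 0.47), Col20a1 (−0.12 to 0.46), Col13a1 (−0.084 to 1.75) and Col28a1 (−0.49 to 0.89). Machinery genes were Pxdn (−0.53 to 0.13), P3h1 (−0.23 to 0.29), Adamts2 (−0.16 to 0.16) and Itgb1 (−0.13 to 0.25). The cause of these reversals was not tested.

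Over all genes, 208 met the study's criterion, against 345 without a filter on low counts, 334 with DESeq2, 312 with edgeR's exact test, 87 with a filter at 1 CPM, 119 with counts divided by 4, 107 with protein-coding genes only, and 341 to 512 with a library left out. At an adjusted p of 0.05 there were 0 genes, against 10 without the filter, 63 with DESeq2, 59 with the exact test, 12 without Control 1 and 37 without Control 2.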

Other observations

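Library number separated the collagen genes more often than group did, and the same held over all genes. For 18 of the 33 genes with a mean of at least 1 CPM, both libraries numbered 1 were above both numbered 2, against 27.3% of all genes at that mean. Col9a2, Col11a1, Col12a1, Col15a1 and Col25a1 were among them. For 4 genes, Col8a1, Col13a1, Col23a1 and Col24a1, both libraries numbered 1 were below both numbered 2, against 24.7% of all genes. By group, both NT4 libraries were above both Control libraries for 11% of all genes at that mean and below them for 13.6%. The study cultured its groups in parallel in separate experiments, but whether a number marks 1 experiment is not stated, and the pattern was noticed after the values had been seen. The summed endothelium markers had the same order of libraries, at 26.1 and 19.3 CPM in Control 1 and 2 and 28.5 and 20.9 CPM in NT4 1 and 2, but most of that sum was Cdh5, and Pecam1 was lowest in NT4 1. The sums of surface epithelium markers (45.0 and 37.2 CPM in Control, 45.8 and 40.4 CPM in NT4) and of oocyte markers (89.6 and 61.9 CPM in Control, 71.9 and 70.5 CPM in NT4) had this order too. Most of the surface epithelium sum was Krt8, while Krt18 and Lhx9 did not have this order. The oocyte markers Gdf9 (the most abundant of that list), Ddx4, Dazl and Sohlh1 did not have it either. In the theca and stroma list 5 of 13 genes had it (Pdgfrb, Gli1, Ptch1, Cspg4 and Nr2f2), Insl3 had the reverse order, and the other 7 genes and the sum of the list had neither. The summed granulosa markers had the reverse order, at 13727 and 16856 CPM in Control and 11893 and 18346 CPM in NT4, a sum made up mostly of Inha, Inhba, Inhbb and Gja1. Among the 12 granulosa markers, Amh, Kitl and Wt1 had the order of the collagen genes instead. Their part in the collagen values was not tested.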
